A study of Mus musculus with 12 samples.

Results

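The transcripts described here are those of Yap1, of Wwtr1 (which encodes TAZ), of the partner genes Tead1, Tead2, Tead3 and Tead4, and of the target genes Ctgf, Cyr61, Ankrd1 and Amotl2. These 10 genes were chosen by name, as the co-activators of the Hippo pathway, their DNA-binding partners and commonly used readouts of both, and were followed over 12 single cells. All 10 were among the 21729 genes of the count table and had a count in at least 1 cell, whereas 33.4% of the table's genes had none.

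The cells were cultured cardiac progenitor cells (CPCs) and form 1 group. They descend from the non-myocyte fraction of hearts of female FVB mice aged 12 weeks, from which lineage-negative c-Kit+ cells had been sorted with magnetic beads. They were grown on gelatin in medium with 10 ng/ml LIF, 10 ng/ml bFGF and 20 ng/ml EGF, and had been passaged 5 times at 40% confluency. Each library is 1 cell, picked by hand after trypsin treatment, and the labels tie no cell to an animal or a dish. The 12 cells therefore count as 1 sample, no test was made between cells, and every spread given here describes these cells alone.

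Total counts ran from 3453708 in cell 1 to 5690184 in cell 12, and 10022 to 11950 genes were detected per cell. Levels are given as CPM, counts per 1000000 counts of the same cell. A gene without counts may lie at up to 0.869 CPM (cell 1) or 0.527 CPM (cell 12), where 3 counts would put it. Reads were not tagged by molecule, so such limits and all intervals cover counting error only. Kit, the marker of the sort, had no count in 11 cells and 21 counts in cell 10. Ddx3y and Eif2s3y, which lie on the Y chromosome, had counts in all 12 cells although the labels give female mice. Cell 10 stood apart by its endothelial markers, whose summed level was 12055 CPM against 73.3 to 414 CPM in the other 11 cells. Cell 3 had the highest sum of the 7 haematopoietic markers, 159 CPM against a median of 32.6 CPM. It came mostly from Cd68 (69.1 CPM), Csf1r (59.1 CPM) and Lyz2 (30.3 CPM), and Ptprc had no count in this cell. Cell 3 was also the highest for the fibroblast markers Mgp (2868 CPM), Pdgfra (276 CPM) and Dcn (223 CPM), but the second lowest for Col1a1 (12.9 CPM) and Col1a2 (22.1 CPM). Cell 11 held 7437 CPM of the actin and SRF list against at most 2744 CPM elsewhere. Of this, 3668 CPM came from Acta2, which is also a mural marker, and the other 7 mural markers summed to 57.6 CPM in cell 11 and to 3.57 to 88.0 CPM elsewhere. Several values are also given without cells 3 and 10.

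In the Hippo pathway, the kinases encoded by Stk3 and Stk4 activate the kinases encoded by Lats1 and Lats2, which phosphorylate YAP and TAZ and keep them out of the nucleus. Unphosphorylated YAP and TAZ enter the nucleus, where they bind no DNA themselves and act through TEAD factors bound at enhancers and promoters. Stiff substrate, spreading and low cell density are known to favour nuclear YAP and TAZ, and in the heart the pathway is known for limiting cardiomyocyte division and for its part in fibroblast activation. RNA counts measure neither the location nor the phosphorylation of these proteins.

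TEAD factors recognise the sequence GGAATG, or CATTCC when it is read on the other strand. Both forms were searched in the 250 bases before the transcription start sites that RefSeq gives on GRCm38.p6, the build that mm10 also names. Of the 10 genes, 7 had a window in the table used here (the others are Ctgf, Tead1 and Tead4), and 6 of the 7 held the motif at least once (Yap1, Wwtr1, Tead3, Cyr61, Ankrd1 and Amotl2, but not Tead2). Over all genes with a window, the share was 14.4%, and over all 32851 windows it was 12.6%. The stretches of 30 bases around the motif (in capitals) are shown 5′ to 3′ on the gene's own strand for Cyr61, Ankrd1, Amotl2 and both co-activators, to show the letters behind these matches.
Cyr61, 103 bases before the start: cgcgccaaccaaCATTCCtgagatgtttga
Ankrd1, 210 bases before the start: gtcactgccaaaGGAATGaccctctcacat
Ankrd1, 123 bases before the start: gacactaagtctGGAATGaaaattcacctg
Amotl2, 65 bases before the start: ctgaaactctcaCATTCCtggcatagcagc
Yap1, 141 bases before the start: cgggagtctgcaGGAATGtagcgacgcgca
Wwtr1, 136 bases before the start: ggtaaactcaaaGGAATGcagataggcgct

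The Ankrd1 window and 1 window of Tead3 were among the 1.02% of windows that held the motif more than once. In the GENCODE vM21 annotation, the motifs of Cyr61, Yap1 and Wwtr1 lay upstream of every annotated transcript of the gene. Those of Ankrd1 lay within an exon of 1 of its 6 transcripts, and that of Amotl2 within an exon of 2 of its 14. Cyr61 is shown with its whole window (chr3:145649986-145650235, minus strand), because it is the highest of the targets per kilobase with a window free of annotated exons.
Cyr61: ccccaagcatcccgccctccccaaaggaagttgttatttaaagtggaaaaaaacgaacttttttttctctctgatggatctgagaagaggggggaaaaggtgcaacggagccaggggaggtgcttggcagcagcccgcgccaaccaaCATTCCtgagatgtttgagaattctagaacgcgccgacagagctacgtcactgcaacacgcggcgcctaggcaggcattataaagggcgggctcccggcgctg
A match of these letters describes the sequence and does not show that a factor was bound there in these cells.

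Most of the 10 transcripts were present in all 12 cells. Of the 10 genes, 9 had a count in all 12 cells, against 53.1% of the genes with a count in any cell. A median of at least 10 CPM was reached by 8 of the 10 (54.5% of all genes), and 6 of the 10 stayed at or above 10 CPM in all 12 cells (32.3%). Tead3 was the exception in each of these counts and Tead4 in the latter pair, while Tead2 and Ctgf fell below 10 CPM in some cells. When levels were divided by the exon length of each gene, the order of the medians was Ctgf (235 CPM per kilobase), Cyr61 (227), Ankrd1 (169), Wwtr1 (46.7), Amotl2 (10.2), Tead1 (5.86), Yap1 (3.99), Tead2 (3.69), Tead4 (1.26) and Tead3 (0.264). Of the 9 neighbouring pairs in this order, only Wwtr1 and Amotl2 were farther apart than the larger SD of the pair. Wwtr1 was above Amotl2 in 11 of 12 cells. Counted cell by cell, Tead4 was likewise above Tead3 in 11 of 12 cells, and Ankrd1 was above Wwtr1 in 10. The other neighbouring pairs kept this order in 5 to 9 cells. The first 3 targets did not differ beyond their spread, and Ctgf was above Cyr61 per kilobase in 7 of 12 cells.

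**Figure D1:**
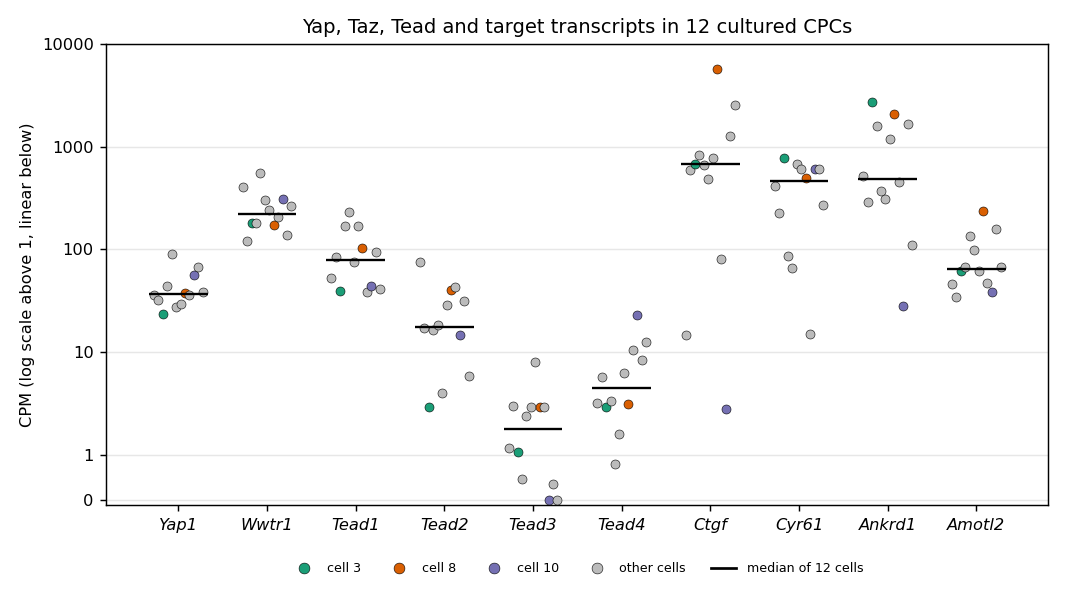
CPM of each of the 10 genes (y axis, logarithmic above 1 and linear below) in the 12 cells (points, in the order of cell number within each gene), with the median as a line. Yap1 and Wwtr1 kept within a range of 3.76-fold and 4.65-fold, whereas Ctgf was at 2.82 CPM in cell 10 and at 5722 CPM in cell 8.

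Yap1 (chromosome 9, 7931999 to 8004596, minus strand, mm10), which encodes the co-activator YAP, was at 23.7 CPM in its lowest cell (cell 3), at a median of 36.9 CPM, and at 89.3 CPM in its highest (cell 5). The mean was 43.3 ± 19.1 CPM (SD, 12 cells). Wwtr1 (chromosome 3, 57455649 to 57575910, minus strand), which encodes the related co-activator TAZ, ranged from 120 CPM in cell 2 over a median of 223 CPM to 557 CPM in cell 5, with a mean of 256 ± 125 CPM. Cell 5 was thus the highest for both genes, and cell 10 lay inside the range of the other cells for both, at 56.5 CPM of Yap1 and 306 CPM of Wwtr1.

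Wwtr1 was above Yap1 per kilobase in all 12 cells. The ratio had a median of 11.5 and ran from 3.97 in cell 11 to 22.0 in cell 1. Wwtr1 was also above each of the 4 Tead genes per kilobase in all 12 cells. Its level per kilobase stood at percentile 91.5 among genes with a count, and that of Yap1 at percentile 57.5. The size of the ratio depends on the length used for each gene, 9257 bases for Yap1 when all annotated exons are joined. With the longest transcript of each gene the median ratio was 6.69, and the ratio of plain counts had a median of 5.95. Wwtr1 stayed above Yap1 in all 12 cells by each of these measures.

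Tead1 (chromosome 7, 112679318 to 112906807, plus strand), which encodes a TEAD factor abundant in heart and muscle, was at 38.2 CPM in its lowest cell (cell 9), at a median of 79.6 CPM, and at 231 CPM in its highest (cell 5). Tead2 (chromosome 7, 45215753 to 45233644, plus strand) was at 2.90 CPM in cell 3, at a median of 17.7 CPM and at 75.6 CPM in cell 1. Tead4 (chromosome 6, 128224288 to 128300823, minus strand) ran from 0.796 CPM in cell 5 over a median of 4.52 CPM to 22.9 CPM in cell 10. The highest cell of each gene was a different one.

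Tead3 (chromosome 17, 28331671 to 28350817, minus strand) was the weakest of the family, with 119 counts over the 12 cells, none in cells 10 and 12, a median of 1.77 CPM and at most 7.99 CPM in cell 7. By the limit of 3 counts, the zeros allow up to 0.563 CPM in cell 10 and 0.527 CPM in cell 12. At a threshold of 5 counts, Tead3 was detected in 6 of 12 cells.

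Per kilobase, Tead1 made up a median of 48.3% of the summed Tead transcripts, Tead2 26.2%, Tead4 10.8% and Tead3 2.09%. Without cells 3 and 10, the median Tead4 share was 7.13%. By joined exon length, Tead1 led in 7 cells and Tead2 in cells 1, 8 and 9, while Tead4 led in cells 10 and 12, with 50.3% and 45.0% of the sum. The leader depends on this length: by the longest transcript Tead1 led in 8 cells, cell 12 among them, and in plain counts it led in 10 cells, with Tead2 ahead in cells 1 and 9 and Tead4 in none. Tead2 thus led in cells 1 and 9 by each measure, and Tead4 in cell 10 by the measures per length. The Tead1 share ran from 18.5% in cell 9 to 79.4% in cell 5, and the Tead2 share reached 76.3% in cell 1. In plain counts, without exon length, the median Tead1 share was 73.3%. Exons of Tead2 overlap those of Cd37, which had 0 counts in the 12 cells.

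**Figure D2:**
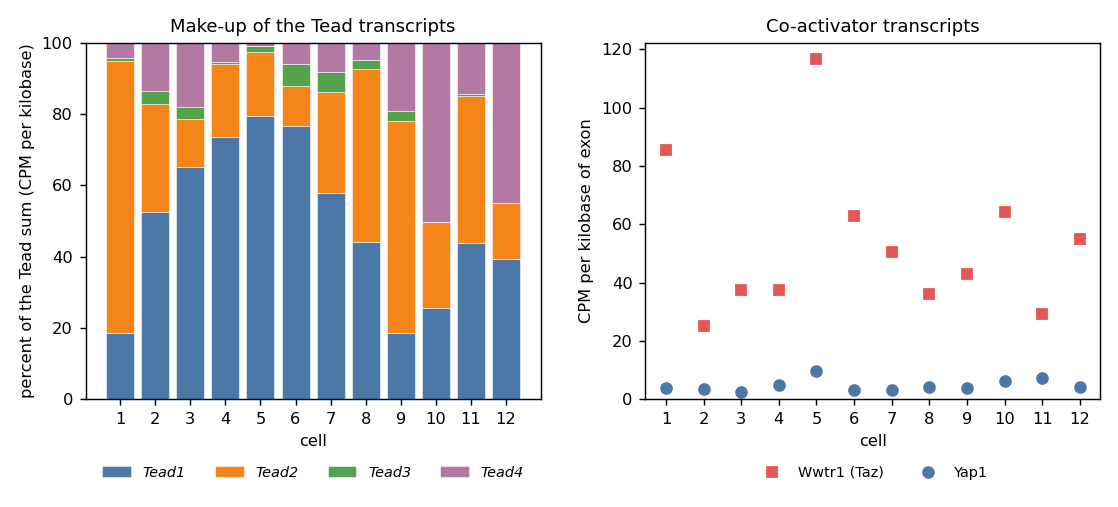
Left, percent of the summed Tead transcripts (CPM per kilobase) held by each Tead gene in each of the 12 cells. Right, CPM per kilobase of exon of Wwtr1 (squares) and Yap1 (circles) in the same cells. By this joined exon length Tead1 was the largest part in 7 cells (10 cells in plain counts), and Wwtr1 was above Yap1 in all 12.

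Ctgf (chromosome 10, 24595442 to 24598683, plus strand), which encodes a secreted matricellular protein that binds integrins and growth factors, was the most variable of the 10 genes. It was at 2.82 CPM in cell 10, at a median of 674 CPM, and at 5722 CPM in cell 8. Cell 8 held 31475 counts of Ctgf, cell 10 held 15 (exact 95% Poisson interval 8.40 to 24.7) and cell 1 held 51 (38.0 to 67.1). The next highest cell after cell 8 was cell 12 at 2538 CPM, and the next lowest after cells 10 and 1 was cell 9 at 79.9 CPM. The mean was 1138 ± 1597 CPM over 12 cells and 1297 ± 1709 CPM without cells 3 and 10. Cell 8 carried much of it, and without cell 8 the mean was 721 ± 715 CPM. The annotation places an antisense transcript, Gm15270, over an exon of Ctgf, and the strand rule of the counting is not given in the sources used here.

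Cyr61 (chromosome 3, 145646976 to 145649981, minus strand), a gene of the same CCN family as Ctgf whose protein is likewise secreted, had another pattern. It was at 15.1 CPM in its lowest cell (cell 9, 72 counts), at a median of 459 CPM, and at 773 CPM in its highest (cell 3). Low values lay in cells 9, 5 and 4 (15.1, 65.9 and 85.6 CPM), and the other 9 cells lay between 224 and 773 CPM. Cells 1 and 10, which had the fewest Ctgf counts, had 417 and 607 CPM of Cyr61. The ratio of Ctgf to Cyr61 in CPM accordingly ran from 0.00464 in cell 10 to 11.4 in cell 8.

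Ankrd1 (chromosome 19, 36111961 to 36120099, minus strand) encodes an ankyrin repeat protein of the nucleus and sarcomere that responds to stretch in muscle. It was at 28.4 CPM in cell 10, at a median of 489 CPM, and at 2697 CPM in cell 3. Cells 8, 11, 4 and 7 were also above 1000 CPM (2092, 1676, 1577 and 1179 CPM), and cell 12 was the second lowest at 111 CPM. Cell 12 thus had the second highest Ctgf and the second lowest Ankrd1 of the 12 cells.

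Amotl2 (chromosome 9, 102716672 to 102733418, plus strand) encodes an angiomotin-like scaffold of cell junctions that holds YAP in the cytoplasm, and is itself a YAP target. It kept the narrowest range of the 4 targets, from 34.6 CPM in cell 2 over a median of 63.9 CPM to 236 CPM in cell 8, with a mean of 87.5 ± 60.5 CPM. It was the lowest target per kilobase in 10 of 12 cells.

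The sum of the 4 targets had a median of 2068 CPM and was lowest in cell 9 (598 CPM) and highest in cell 8 (8551 CPM). The leading target per kilobase was Ankrd1 in 5 cells, Ctgf in 4 (2, 5, 8 and 12) and Cyr61 in 3 (1, 6 and 10). In CPM without length, Ankrd1 led in cell 1 as well, and Cyr61 in cells 6 and 10. Cyr61 made up 89.8% of the target counts scaled to CPM in cell 10, and Ctgf made up 84.9% in cell 12. Ankrd1 made up 76.3% in cell 9. A sum over targets therefore stood for a different gene in different cells.

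**Figure D3:**
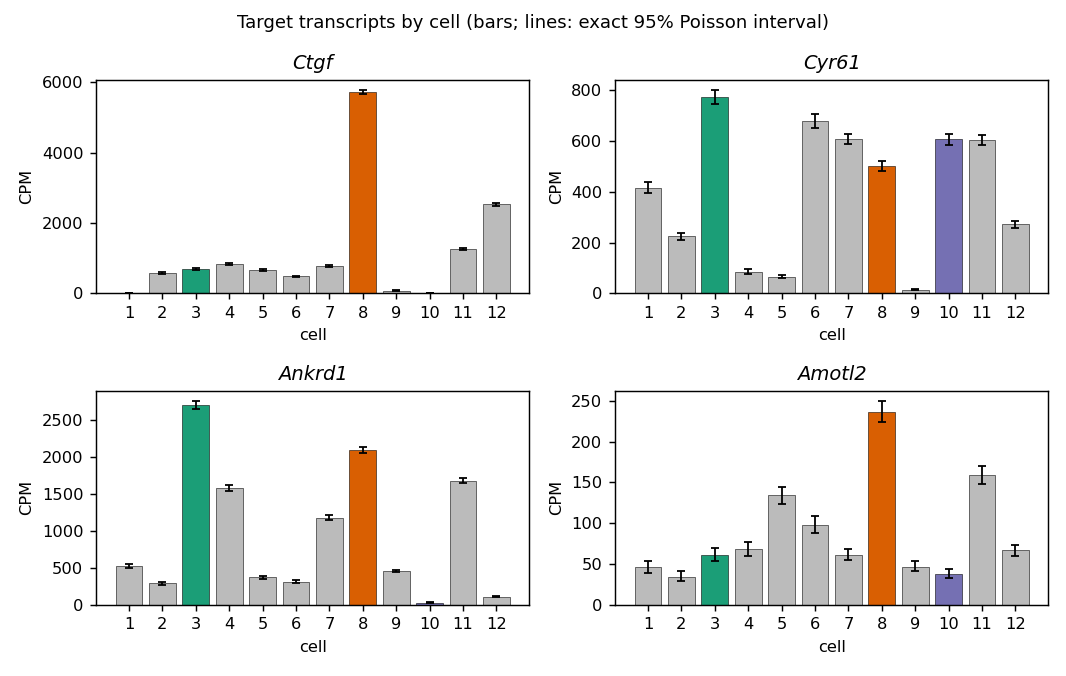
CPM of Ctgf, Cyr61, Ankrd1 and Amotl2 in each of the 12 cells (bars, linear axes from 0, each with its own scale), with exact 95% Poisson intervals as lines; cells 3, 8 and 10 are coloured. Cell 8 is highest for Ctgf and Amotl2, cell 3 for Cyr61 and Ankrd1, and cell 9 is lowest for Cyr61.

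Variation between cells was compared with that of other genes of like level by the dispersion residual, the log10 of the squared coefficient of variation minus the running median of genes with similar mean CPM. Of the 9 members that averaged 5 CPM or more, 3 had a residual above 0.5, and these were the targets Ctgf (1.13), Ankrd1 (0.83) and Cyr61 (0.55); 10.2% of 9701 genes did. Ctgf was within the top 1.43% of genes, Ankrd1 within 4.03% and Cyr61 within 8.92%. The residual was 0.43 for Amotl2, 0.35 for Tead1, 0.26 for Tead2, 0.19 for Wwtr1, 0.01 for Tead4 and -0.12 for Yap1. Yap1 lay close to the typical gene of its level, at -0.04 without cell 10, and the genes of the co-activators and of their partners lay below the target genes on this measure. The highest cell was at least 4 times the median for Ctgf, Ankrd1 and Tead2, 3 of 8 members with a median of at least 10 CPM, against 9.48% of all such genes. Tead2 was close to the threshold, at 4.28 times, and fell below it without cells 3 and 10, which left 2 members.

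**Figure D4:**
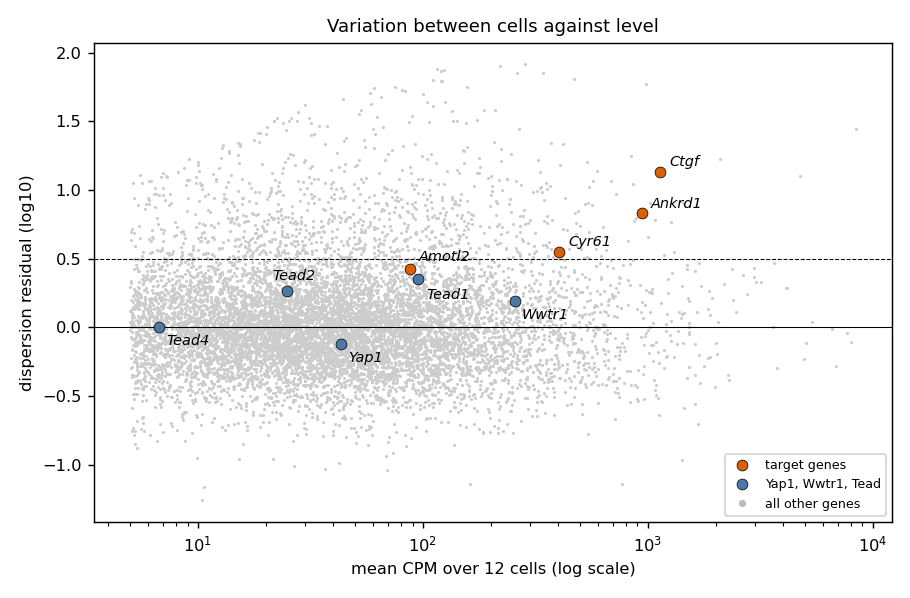
Dispersion residual (log10, y axis) against mean CPM over 12 cells (logarithmic x axis) for 9701 genes (grey) and 9 members (coloured); the dashed line marks 0.5. Ctgf, Ankrd1 and Cyr61 lie above the line, and Yap1 lies just below 0.

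Over the 45 pairs of members, Spearman's rho across the 12 cells had a median of 0.007, with 2 pairs at 0.5 or more and 3 at -0.5 or less. Among all pairs of the 7566 genes that averaged 5 CPM or more with a count in every cell, 6.88% were at 0.5 or more and 5.26% at -0.5 or less, so the numbers of member pairs are near the background. Without cells 3 and 10 the median was -0.02. Then 4 pairs were at 0.5 or more (Ctgf with Amotl2, Tead2 with Ankrd1, Yap1 with Amotl2 and Ankrd1 with Amotl2). At -0.5 or less were 2 (Yap1 with Tead3 and Tead1 with Tead4). The share over all gene pairs was not computed without cells 3 and 10, so these numbers have no background. The pair moved most by leaving out these cells was Yap1 with Ankrd1, from -0.18 to 0.26. Yap1 with Ctgf went from 0.17 to 0.48, and Tead1 with Tead2 from 0.18 to -0.15. The cells share a culture, the libraries differ in depth, and with 12 points these coefficients are descriptions. Ctgf and Amotl2 were the closest pair, at rho 0.70 over 12 cells and 0.65 without cells 3 and 10, and Tead1 and Amotl2 followed at 0.53 (0.48 without those cells). The negative pairs were Yap1 with Tead3 (-0.55), Yap1 with Cyr61 (-0.51) and Wwtr1 with Ctgf (-0.51). Without cells 3 and 10, they were at -0.70, -0.49 and -0.39.

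Among the 6 pairs of targets, the median rho was 0.35. Ctgf and Ankrd1 were at 0.49 over 12 cells and at 0.34 without cell 10. Ctgf and Cyr61, the CCN genes, were at 0.02 over 12 cells and 0.19 without cells 3 and 10. Yap1 and Wwtr1 were at 0.13 with each other, and at -0.02 without those cells.

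**Figure D5:**
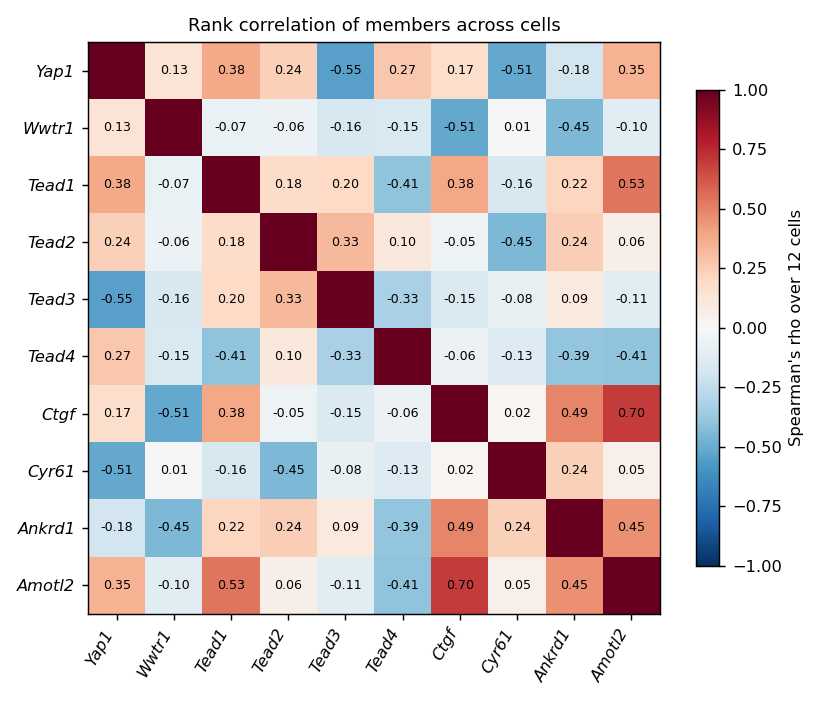
Spearman's rho of CPM across the 12 cells for each pair of the 10 genes (colour from -1 in blue to 1 in red, value in each square). The highest is Ctgf with Amotl2 at 0.70, and Ctgf with Cyr61 is at 0.02; several pairs move without cells 3 and 10, such as Yap1 with Ankrd1 from -0.18 to 0.26.

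The genes most like each of the 3 leading targets were sought among the 7566 genes that averaged 5 CPM or more and had a count in every cell. For Ctgf they were Lox (rho 0.91), Armcx2 (0.90), Pgm2 (0.85), Gtf3c6 (0.84) and Slc26a2 (0.83). Lox, which encodes the enzyme that cross-links collagen, was at 66.7 CPM in cell 10 and 77.0 CPM in cell 1, its lowest cells, and at 1262 CPM in cell 8 and 1824 CPM in cell 12, its highest. Those are also the extreme cells of Ctgf. Without cells 3 and 10, rho of Lox with Ctgf was 0.94.

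For Cyr61 the most alike included Lrpap1 (rho 0.89), Zdhhc1 (0.86) and Tle6 (0.86). For Ankrd1 they were Mrpl20 (0.89), Bri3bp (0.85), Rnf19b (0.84), Pter (0.83) and Tmem208 (0.78). Mrpl20, a gene of the mitochondrial ribosome, was within 87.2 to 169 CPM while Ankrd1 ran over a 95.1-fold range, so the likeness is one of rank and not of size. These lists are unstable. With Pearson's r of log2(CPM + 1) in place of rho, 2 of the 5 genes stayed for Ctgf, 0 for Cyr61 and 1 for Ankrd1, and without cells 3 and 10 the numbers were 1, 0 and 0.

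Cell 10, the cell with the endothelial markers, had the lowest Ctgf and Ankrd1 and the highest Tead4 of the 12 cells, while Cyr61 and Amotl2 lay within the range of the others. Of the 9 members with at least 10 CPM in cell 10 or in the median of the others, 2 were at least 4-fold lower in it, against 11.3% of 8870 genes. Ctgf was 243-fold lower than the median of the other 11 cells (2.82 against 684 CPM) and Ankrd1 was 18.4-fold lower (28.4 against 521 CPM). Tead4 was the 1 member at least 4-fold higher (9.33% of genes), at 6.83-fold (22.9 against 3.36 CPM). Cyr61 was at 607 CPM against 417 CPM, Yap1 at 56.5 against 36.3 CPM and Wwtr1 at 306 against 206 CPM, each within the range of the other cells. Cell 10 was the lowest of the 12 for 2 of 9 members, where 16.0% of genes were lowest in it. These counts are near the shares over all genes, and low Ctgf was not particular to cell 10, since cell 1 was at 14.8 CPM. These folds come from 1 cell and have no replicate check.

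The kinase cassette upstream of YAP and TAZ was present in each cell. All 7 genes of it (Stk3, Stk4, Sav1, Lats1, Lats2, Mob1a and Mob1b) had a count in all 12 cells (53.1% of the genes with any count) and a median of at least 10 CPM (54.5%). The highest medians were those of Mob1a, which encodes the adaptor that activates the LATS kinases, at 91.6 CPM (36.9 to 143), Lats2 at 60.6 CPM (20.9 to 173) and Stk3 at 48.6 CPM (20.9 to 95.9). The summed level lay between 239 CPM (cell 8) and 491 CPM (cell 5), a narrower range than that of the target sum, and its rho with the target sum was -0.18. Cell 8, with the highest target sum, had the lowest kinase sum and the lowest Lats2. Cell 9, with the lowest target sum, had 350 CPM of the kinase genes, close to the median of 357 CPM.

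Of the 9 other kinases that can act on LATS or alongside it, 7 had a count in every cell (53.1% of genes). The highest medians were those of Map4k4 (120 CPM), Taok1 (93.2 CPM) and Stk38 (51.4 CPM). The summed level of these 9 genes had rho -0.59 with the target sum and -0.62 with Ctgf (-0.58 and -0.54 without cells 3 and 10). With Cyr61 it had -0.17 and with Ankrd1 -0.31 (-0.33 and -0.09 without those cells). Of 15 regulators at junctions and membrane, 9 had a count in every cell, a share near the 53.1% of genes with any count, and Dchs1, the cadherin that pairs with Fat4, had none in any. The highest medians were those of the giant cadherin Fat1 (156 CPM), of Frmd6 (84.1 CPM) and of Amotl1 (67.4 CPM). Fat1 was at 8.07 CPM in cell 10 against 90.7 to 265 CPM elsewhere. The junction list had rho 0.85 with Tead1 over 12 cells and 0.82 without cells 3 and 10, its highest among the members. With the other members its rho over 12 cells ran from -0.41 (Tead4) to 0.64 (Amotl2), and with the target sum it was 0.10. The share of all genes with a rho this high was not computed.

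The vestigial-like genes encode cofactors that compete with YAP and TAZ for TEAD. Vgll1 and Vgll2 had no count in any of the 12 cells. Vgll4 had a median of 22.1 CPM and was highest in cell 10, at 52.8 CPM. Vgll3 ran from 0 counts in cell 10 over 6.66 CPM in cell 1 and 10.3 CPM in cell 9 to 173 CPM in cell 11, with a median of 64.0 CPM. Cells 10, 1 and 9, the lowest for Vgll3, were also the lowest for Ctgf. The rho of Vgll3 with Ctgf was 0.85 over 12 cells and 0.81 without cells 3 and 10. With Amotl2, Ankrd1 and Cyr61, Vgll3 had rho 0.63, 0.37 and 0.03 over 12 cells, and Vgll4 had -0.01 with Ctgf.

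A further 25 genes named as YAP or TAZ targets in other tissues were read in the same way, of which Lats2, Ptpn14, Amotl1 and Nuak1 also stand in the lists above. All 25 had a count in at least 1 cell, where 33.4% of the table's genes had none, and 17 had a count in every cell, where 53.1% of genes with any count did. The highest medians were those of Ccnd1, the cyclin of early G1, at 902 CPM, of the receptor gene Tnfrsf12a at 677 CPM, of the receptor kinase gene Axl at 479 CPM, of Asap1 at 236 CPM and of Myof at 135 CPM. The largest dispersion residuals were those of F3 (1.06), Birc5 (1.03) and Nuak2 (0.72). F3, which encodes tissue factor, had 0 counts in cells 2, 5, 11 and 12 and reached 216 CPM in cell 7. Birc5, a gene of mitosis, was at 10.0 CPM in cell 3 and at 706 CPM in cell 9.

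Of the 16 further targets with a count in every cell and a mean of at least 5 CPM, 4 had rho of at least 0.5 with Amotl2 (Axl, Gadd45b, Asap1 and Ccnd1), where 4.72% of genes did. With Ctgf there were 2 (Axl and Tnfrsf12a; 4.08% of genes), and there was none with Cyr61 (5.62%) or with Ankrd1 (2.96%). At rho -0.5 or less were Ptpn14 with Ctgf (-0.54; 1 of 16, and 5.06% of genes) and Birc5 with Cyr61 (-0.71; 1 of 16, and 13.4% of genes). These counts describe 12 cells and carry no test.

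Other measured values ranked the cells in part like single targets, and a selection of them is given beside the target. Lists not given here also passed rho 0.5 in either direction with a target. The sum of the 10 fibroblast markers had rho 0.85 with Ctgf over 12 cells and 0.88 without cells 3 and 10. With the sum of the 4 targets its rho was 0.94 (0.95 without those cells), with Amotl2 0.58 (0.62), with Ankrd1 0.46 (0.19) and with Cyr61 0.40 (0.55). It was lowest in cell 10 (324 CPM) and highest in cell 12 (6370 CPM), and 5 of its 10 genes had a count in every cell, near the 53.1% of genes with any count. Few genes carry this sum: Col1a1 and Col1a2 made up 92.4% of it in cell 12, and Mgp 2868 of 3638 CPM in cell 3. The sum of the collagen genes Col1a1 and Col1a2 had rho 0.80 with Ctgf, Mgp had -0.02, and the other 7 markers together had 0.55. The TGF-beta response list had rho 0.45 with Ctgf over 12 cells and 0.87 without those cells, and cell 10 held 5696 CPM of that list beside 15 counts of Ctgf. With Ankrd1 and Cyr61, the TGF-beta list had rho -0.20 and 0.12 over 12 cells (0.30 and 0.33 without cells 3 and 10). The fibroblast and TGF-beta lists share Col1a1, Col1a2, Col3a1 and Postn. The total count of the library had rho 0.59 with Ctgf (0.83 without cells 3 and 10), and the number of genes detected had -0.55 (-0.81). The total count had rho -0.08 with Ankrd1 and -0.09 with Cyr61 (0.20 and 0.07 without cells 3 and 10). The actin and SRF list had rho 0.33 with Ctgf, 0.05 with Ankrd1 and 0.31 with Cyr61 over 12 cells. Without cells 3 and 10 these were 0.54, 0.50 and 0.71. The mural list had 0.49 with Ctgf, 0.47 with Ankrd1 and 0.06 with Cyr61 (0.41, 0.72 and 0.33 without those cells). These lists share Acta2, which carries the mural sum in cell 11. Without Acta2 the mural list had rho 0.63 with Ctgf and 0.31 with Ankrd1. In cell 11, Ctgf was at 1268 CPM, Amotl2 at 159 CPM and Vgll3 at its maximum of 173 CPM. The part of the fibroblast, TGF-beta, actin and mural genes and of the depth in the target differences was not tested.

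Cyr61 ran in part against the cycle lists. The summed G2/M list had rho -0.66 with Cyr61 over 12 cells and -0.60 without cells 3 and 10, and the S phase list had -0.58 and -0.39. Of the 7566 single genes that averaged 5 CPM or more with a count in every cell, 13.4% were at -0.5 or less with Cyr61. Cells 9 and 5, with the least Cyr61, had the highest G2/M sums, 7232 and 5199 CPM, but cell 8, with the third highest sum at 3402 CPM, had 500 CPM of Cyr61, and cell 4, also low in Cyr61, had a G2/M sum of 579 CPM, below the median of 670 CPM. The early response list had rho 0.56 with Cyr61 (0.75 without cells 3 and 10). Of its single genes, Fos had rho 0.33 and Egr1 0.22 with Cyr61 (0.05 and 0.33 without those cells). The endothelial list had rho 0.63 with Cyr61 (0.44 without those cells). For Ctgf, the rho with the G2/M and early response lists was -0.34 and -0.23 (-0.44 and -0.08 without those cells). The part of the cycle, early response and endothelial genes in the Cyr61 differences was not tested.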

How the data were processed

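Messenger RNA of 12 single cultured CPCs had been copied with Smart-Seq v4 and made into libraries with Nextera XT. The deposited table gives unnormalised read counts, for which the authors mapped reads to mm10 with STAR 2.5.2b and kept uniquely mapped reads. The program, annotation and strand rule of counting are not given in the sources used here, so counts of overlapping genes are uncertain.

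From these counts, CPM was the count divided by the total of the cell. Exon lengths and positions came from GENCODE vM21, where 98.3% of symbols matched, with Ctgf and Cyr61 under their newer names Ccn2 and Ccn1. Dispersion used genes that averaged 5 CPM or more with counts in at least 3 cells, and a running median of 201 genes. Poisson intervals were exact. Correlations were Spearman's rho. All 12 cells passed the study's filter (1000 genes, 10% mitochondrial counts). Scripts were tested on simulated data.

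The members and lists were chosen with earlier results of these data known. The genes named were the 10 members, the 3 genes of highest median and those without counts in each Hippo list, the 5 highest medians and 3 largest residuals of the further targets, and the 5 genes most like Ctgf, Cyr61 and Ankrd1. Some genes that this rule selects for Cyr61 are not reported here. Others (Kit, Ddx3y, Eif2s3y, Mgp, the collagen I genes, and the further targets past rho 0.5 in either direction) were named after their values were seen. The same holds for Cd68, Csf1r, Lyz2, Ptprc, Pdgfra, Dcn, Fos and Egr1. Alternatives covered scaling (TMM and median of ratios from edgeR 4.0.16), depth, detection threshold, exon length, filter, correlation measure and leaving out cell 10 or cells 3 and 10, which for counts of members and of pairs, like the leading Tead by length, the Ctgf mean without cell 8 and the mural list without Acta2, was added after seeing the data. Scripts ran in R 4.3.3 and in Python 3.11.15 with pandas 2.3.3, numpy 2.4.6, matplotlib 3.10.9 and scipy 1.17.1.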

Additional observations from a re-analysis of the deposited data

How the results depend on the processing

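Of 380 alternative values over 97 results, 332 stayed within the SD over cells of the main value (for correlations and dispersion residuals within 0.2, for counts within 1.5 times) and 48 moved farther. For 5 members the SD is larger than the median, so the SD is a wide limit. Of the 60 alternative median CPM values, 1 moved by over 1.5 times (Tead3 at 1.16 CPM with thinned counts, from 1.77 CPM), and the other 9 members moved by at most 1.35 times. Within the limit for counts, 6 members in place of 9 passed in every cell when 10 CPM was asked. With plain counts in place of counts per kilobase, the median ratio of Wwtr1 to Yap1 was 5.95 instead of 11.5 (6.69 by the longest transcripts), and the median Tead1 share of the Tead sum was 73.3% instead of 48.3%. Of the 135 alternative correlations between members, 27 moved by more than 0.2, the pairs at 0.5 or more were 4 in place of 2 without cells 3 and 10, those at -0.5 or less were 1 in place of 3 without cell 10, and the 5 genes most like each of Ctgf, Cyr61 and Ankrd1 changed in each of 9 alternatives. Tead4 had a dispersion residual of -0.24 without cell 10. Tead3 and Tead4 are limited by depth, with 119 and 408 counts over the 12 cells. No paired analysis was possible because the 12 cells form 1 group.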
